A study of Mus musculus with 4 samples.

Results

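MHC class II molecules and their regulators were followed as 10 genes among the 38124 gene IDs counted in sorted cells of the mouse intestine. The genes were found by their symbols: H2-Aa, H2-Ab1 and H2-Eb1 encode chains of the surface molecules, H2-DMa and H2-DMb1 encode the peptide-loading molecule H2-DM, Cd74 encodes the invariant chain, Ciita is the class II transactivator, and Rfx5, Rfxap and Rfxank are the subunits of the RFX complex. All 10 were found once, and all 10 passed the filter on low counts. Poly(A)-selected RNA came from C57BL/6 males aged 71 weeks, and each library pooled sorted cells of 2 to 5 mice. The 4 groups, with 1 library each, were high-fat diet (HFD) GFP-high, HFD GFP-low, control diet GFP-high and control diet GFP-low. The titles call the control libraries WT, their diet is labelled normal, and the labels give no genotype beyond the strain for any group. The labels call GFP-high cells intestinal stem cells and GFP-low cells progenitors. All 4 groups carried GFP, and the sources used here give neither the gene that drives it nor the fat content and duration of the diet.

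Annotation on build GRCm38 places the 5 class II chain genes within the major histocompatibility complex of chromosome 17: H2-DMa at chr17:34119541-34139101, H2-DMb1 at chr17:34153072-34160230, H2-Ab1 at chr17:34257689-34269419 and H2-Eb1 at chr17:34305867-34316674, all on the plus strand, and H2-Aa at chr17:34282744-34287823 on the minus strand. The other 5 genes lie elsewhere. Cd74 is at chr18:60803848-60812652, Ciita at chr16:10480059-10528418 and Rfx5 at chr3:94954075-94961561, all on the plus strand. Rfxap is at chr3:54803115-54807791 and Rfxank at chr8:70130794-70139154, both on the minus strand. The counts are per whole gene.

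A class II molecule is a pair of an alpha and a beta chain that shows peptides from the endosome to CD4 T cells. The invariant chain holds the pair on its way to the endosome, and H2-DM exchanges the remaining invariant chain fragment for a peptide. Transcription of these genes needs Ciita, which binds no DNA itself and docks on RFX, NF-Y and CREB proteins at the promoter; interferon-gamma induces Ciita in epithelial cells. Class II molecules are best known on B cells, dendritic cells and macrophages, and the crypt epithelium can make them as well.

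The libraries held between 4677389 and 6207080 counts. Without a replicate in any group, intervals within a library cover counting error only. The 10 listed stem cell markers, among them Lgr5, were all higher in GFP-high cells by the test described below. The 10 listed epithelial markers summed to between 5234 and 10135 CPM. CPM here means counts over the library size in units of 1e+06 after TMM scaling, a method that sets library sizes from the bulk of the genes. Of 21 leukocyte genes, 7 had 0 counts in all 4 libraries, including Ptprc (the pan-leukocyte CD45), Ms4a1 of B cells, and Csf1r and Adgre1 of macrophages. The 21 genes summed to 12.4 and 24.8 CPM in the HFD libraries, against 15.6 and 37.5 CPM in the control libraries (GFP-high and GFP-low in each case), and Cd74 alone was at 1344 and 944 CPM in the control libraries. Most of the leukocyte sum was the integrin gene Itgam. The other 20 genes had 16 and 22 counts under HFD, against 26 and 35 under control. Zbtb46, a marker of dendritic cells named after its values were seen, had 0 and 1 counts under HFD and 9 and 3 under control. Itgax, also on the list, had 2 and 0 counts under HFD and 0 and 2 under control. For Flt3 the counts were 0 and 0 under HFD and 1 and 0 under control.

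The promoters are shown because Ciita is known to act through sequence that class II genes share. RefSeq promoters (build GRCm38.p6, 250 bases before to 50 after the start) were on hand for 6 of the 10 genes: H2-Aa, H2-Eb1, H2-DMa, H2-DMb1, Rfx5 and Rfxank. H2-Ab1, Cd74, Ciita and Rfxap are named only. Class II promoters are known for an X box, bound by RFX, followed by a Y box, bound by NF-Y, whose core reads ATTGG. The letters AGNAAC with ATTGG starting 25 to 45 bases after it on the same strand, searched on both strands, stood in 1.14% of 32851 RefSeq promoters, and in those of 5 of 8 class II genes. The looser letters GNAAC in the same arrangement, chosen after the sequences were seen because H2-Aa lacks the A, stood in 3.41% of promoters and in those of 6 of 8 class II genes. The windows below show these 6, each on its gene's strand, with GNAAC and ATTGG in capitals.
H2-Aa, chr17:34287859-34287916, minus strand: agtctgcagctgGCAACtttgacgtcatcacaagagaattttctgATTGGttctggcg
H2-Eb1, chr17:34305764-34305820, plus strand: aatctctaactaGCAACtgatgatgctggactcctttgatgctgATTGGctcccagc
H2-DMb1, chr17:34153085-34153142, plus strand: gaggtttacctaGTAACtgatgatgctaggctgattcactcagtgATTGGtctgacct
H2-Eb2, chr17:34325531-34325587, plus strand: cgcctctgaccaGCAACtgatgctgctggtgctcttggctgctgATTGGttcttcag
H2-Oa, chr17:34092291-34092348, plus strand: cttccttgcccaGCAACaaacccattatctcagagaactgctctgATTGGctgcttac
H2-Ob, chr17:34238806-34238860, plus strand: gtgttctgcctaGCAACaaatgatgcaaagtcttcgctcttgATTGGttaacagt

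In H2-Aa, H2-Eb1 and H2-DMb1 the letters GNAAC began 81, 91 and 94 bases before the RefSeq start, and ATTGG began 33, 32 and 33 bases after them. The H2-DMb1 window lies inside the gene interval given above, because that annotation begins the gene upstream of the RefSeq start. H2-Eb2, H2-Oa and H2-Ob carried the same arrangement, with spacings of 32, 33 and 30 bases. These last 3 genes had 0 counts in all 4 libraries, so the letters were present in promoters of class II genes that were counted and of class II genes that were not. A count of 0 allows up to 0.483 to 0.641 unscaled CPM, depending on the library, taking 3 counts as the upper limit. The letters CCAAT, which overlap the Y box core as its other strand, stood in 37.4% of all promoters, in those of 8 of 8 class II genes and in both RFX promoters. Alone, the strict X box letters used above stood in 48.1% of all promoters, and the form with C as their variable base stood in 14.8%. The paired arrangement was not in the windows of Rfx5 (88 bases shown, with 2 CCAAT in capitals) and Rfxank, nor in those of H2-DMa.
Rfx5, chr3:94953983-94954070, plus strand: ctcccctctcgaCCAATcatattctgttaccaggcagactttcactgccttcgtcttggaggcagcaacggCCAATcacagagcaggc

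The diets were compared over both fractions, to see how the genes of class II presentation stood under a high-fat diet. The 3 surface chains, the invariant chain, both H2-DM chains and Ciita fell under HFD, and no RFX subunit was called. Thus 7 of the 10 genes fell and none rose, where 3.0% of the 10694 tested genes fell. The median log2 ratio of HFD over control was -2.43 for the 10 genes and 0.01 for all tested genes. The 6 chain and chaperone messages together made up 274 and 123 CPM in HFD GFP-high and GFP-low cells, against 2206 and 1473 CPM in control GFP-high and GFP-low cells. Their sum was 8.04-fold lower under HFD in GFP-high cells and 12-fold lower in GFP-low cells. In these pooled cells, fewer cells making class II molecules and less class II RNA per cell cannot be told apart.

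The test was edgeR's quasi-likelihood F-test in one model with diet and fraction as terms, with Benjamini-Hochberg adjustment over all tested genes. With 1 library per group, the spread comes from the diet-by-fraction difference and is shared across genes, and the labels do not say whether the GFP-high and GFP-low cells of one diet were sorted from shared mice, in which case the p-values would be too small. Without fraction as a term, edgeR called none of the 10 genes or of all genes, and 7 of the 10 had an unadjusted p under 0.05. DESeq2 called the same number of members lower, 7.

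H2-Aa, the alpha chain of I-A, fell the most of the 10. It had 71 and 17 counts (10.6 and 3.43 CPM) in HFD GFP-high and GFP-low cells, against 1098 and 543 counts (199 and 123 CPM) in control GFP-high and GFP-low cells. Both HFD libraries were below both control libraries. The fall was 22.7-fold (log2 -4.51 ± 0.18 SE, edgeR adjusted p = 1.73e-07), rank 4 from the lowest log2 ratio among the 10694 tested genes. H2-Ab1, the beta chain that pairs with H2-Aa, had 32.4 and 16.4 CPM in the HFD libraries, against 344 and 226 CPM in the control libraries. It fell 11.8-fold (log2 -3.56 ± 0.12 SE, edgeR adjusted p = 9.21e-08), rank 10.

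H2-Eb1 is the beta chain of I-E, and the C57BL/6 strain is known to lack the alpha chain of I-E. The alpha chain gene, annotated as the pseudogene H2-Ea-ps, had 0 counts in all 4 libraries. H2-Eb1 itself had 26.5 and 7.07 CPM in HFD GFP-high and GFP-low cells, against 217 and 96.1 CPM in control GFP-high and GFP-low cells. It fell 9.60-fold (log2 -3.26 ± 0.16 SE, edgeR adjusted p = 5.69e-07), so the fall included a chain without its partner. Of the other class II genes, H2-Eb2, H2-Oa and H2-Ob had 0 counts throughout. H2-DMb2 had 1 count, in the HFD GFP-high library.

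Cd74, the invariant chain, was the most abundant of the 10 in every library. It had 183 and 81.0 CPM in the HFD libraries and 1344 and 944 CPM in the control libraries. It fell 9.15-fold (log2 -3.19 ± 0.15 SE, edgeR adjusted p = 4.67e-07). Both HFD libraries were again below both control libraries.

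Both H2-DM genes fell too, with smaller fitted ratios than the surface chains. In GFP-low cells, however, the log2 ratio of H2-Eb1 minus that of H2-DMb1 was -0.46 (counting interval -1.30 to 0.39), from counts with nothing added. H2-DMa had 15.0 and 11.3 CPM under HFD (GFP-high and GFP-low), against 66.1 and 46.3 CPM under control, a 4.27-fold fall (log2 -2.09 ± 0.15 SE, edgeR adjusted p = 1.23e-05). H2-DMb1 had 6.75 and 3.84 CPM under HFD, against 34.9 and 38.0 CPM under control, a 6.65-fold fall (log2 -2.73 ± 0.23 SE, edgeR adjusted p = 5.56e-05). The HFD libraries of both genes lay below both control libraries. Of the 40-base words in the longest H2-DMb1 transcript, 32.2% also occur in H2-DMb2, so reads from that stretch could match either gene. The annotated interval of H2-DMa overlaps Brd2 on the opposite strand. The libraries marked strand, but no source used here gives the strand setting of the counting. For Brd2 the log2 ratio was -0.16 ± 0.10 SE, with an edgeR adjusted p of 0.404.

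Ciita, the regulator that the other class II genes depend on, had 97 and 31 counts (14.5 and 6.26 CPM) in HFD GFP-high and GFP-low cells. The control libraries had 377 and 101 counts (68.4 and 22.8 CPM). Both HFD libraries were below both control libraries. It fell 4.34-fold (log2 -2.12 ± 0.17 SE, edgeR adjusted p = 3.65e-05). Dexi overlaps Ciita on the opposite strand and was at log2 -0.04 ± 0.24 SE between the diets, with an edgeR adjusted p of 0.95.

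The RFX subunits showed no called difference between the diets. Rfx5 had 29.4 and 25.5 CPM under HFD, against 36.1 and 20.6 CPM under control (log2 -0.04 ± 0.17 SE, edgeR adjusted p = 0.919). Rfxap, the RFX-associated protein, had 17.4 and 16.4 CPM under HFD, against 18.2 and 17.2 CPM under control (log2 -0.07 ± 0.18 SE, edgeR adjusted p = 0.889). Rfxank, the ankyrin repeat subunit, had 21.7 and 31.3 CPM under HFD, against 25.2 and 39.6 CPM under control (log2 -0.28 ± 0.14 SE, edgeR adjusted p = 0.315). Taken over both fractions, the HFD and control values overlapped for all 3. Within each fraction Rfxap and Rfxank were lower under HFD. The log2 ratio of Rfxank was -0.21 (counting interval -0.56 to 0.13) in GFP-high and -0.33 (-0.66 to -0.02) in GFP-low cells. That of Rfxap was -0.06 (-0.46 to 0.34) in GFP-high and -0.07 (-0.54 to 0.40) in GFP-low cells. Rfxank and Rfx5 share 36.4% and 26.0% of their 40-base words with other annotated genes. Nr2c2ap overlaps Rfxank on the opposite strand and was at log2 -0.23 ± 0.20 SE between the diets, with an edgeR adjusted p of 0.586.

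**Figure D1:**
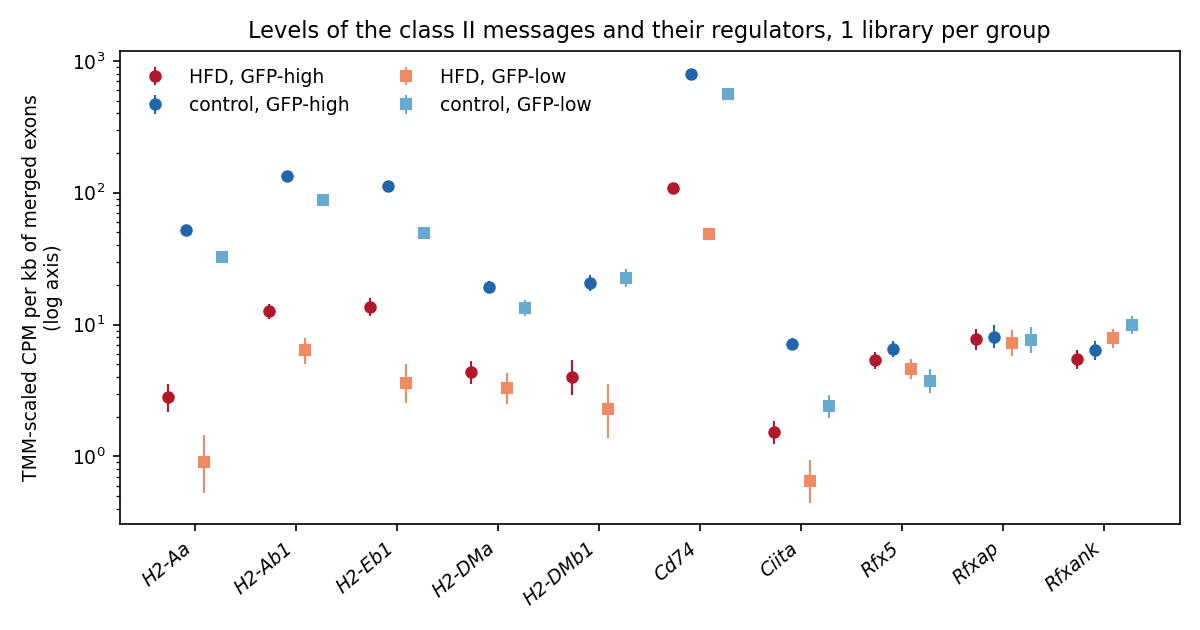
Levels of the 10 genes in the 4 libraries, as TMM-scaled CPM per kilobase of merged exons on a log axis, with exact 95% Poisson intervals. In each fraction the HFD point lies below the control point for H2-Aa, H2-Ab1, H2-Eb1, H2-DMa, H2-DMb1, Cd74 and Ciita, and the RFX genes stay between 3.74 and 9.97.

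Levels of different genes were compared per kilobase of merged exons. In the control GFP-high library the order was Cd74 (801 CPM per kb), H2-Ab1 (134), H2-Eb1 (112), H2-Aa (52.5), H2-DMb1 (20.7), H2-DMa (19.2), Rfxap (8.10), Ciita (7.18), Rfx5 (6.57) and Rfxank (6.36). Here H2-DMb1 and H2-DMa, and each neighbouring pair from Rfxap to Rfxank, had overlapping counting intervals. In the HFD GFP-high library Cd74 stood at 109 CPM per kb, followed by H2-Eb1 (13.7) and H2-Ab1 (12.6), whose intervals overlap. H2-Aa stood in place 9 of 10 there at 2.80 CPM per kb, below all RFX genes (5.35 to 7.76), and in place 4 in the control GFP-high library. The interval of H2-Aa overlapped that of H2-DMb1 in place 8. Ciita was last in both HFD libraries, at 1.53 and 0.657 CPM per kb in GFP-high and GFP-low cells, although in HFD GFP-low cells its interval overlapped that of H2-Aa (0.904). In the control GFP-low library it was also last, at 2.39 CPM per kb. Merged exons overstate the length of a gene with several isoforms, which lowers its level on this scale.

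Within each fraction the diets were compared with 1 library each and no test. The same 7 genes were at least 2-fold lower under HFD in GFP-high cells and in GFP-low cells. Of all genes with 5 CPM or more in the higher library, 1.52% were that much lower in GFP-high cells and 2.63% in GFP-low cells. The log2 ratio (of CPM plus 0.5) of H2-Aa was -4.16 (counting interval -4.59 to -3.88) in GFP-high cells and -4.97 (-5.95 to -4.47) in GFP-low cells. That of H2-Ab1 was -3.39 (-3.62 to -3.20) in GFP-high and -3.75 (-4.13 to -3.46) in GFP-low cells. In both genes the ratio was lower in GFP-low cells. For H2-Ab1 the difference between the fractions was 0.36, with a counting interval of -0.03 to 0.74 that held 0.

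The reduction of Cd74 was smaller in GFP-high cells, with a log2 ratio of -2.88 (-2.97 to -2.79), against -3.54 (-3.69 to -3.40) in GFP-low cells. The difference between the fractions was 0.66 (counting interval 0.49 to 0.83). H2-Eb1 differed by 0.66 (0.12 to 1.21), H2-Aa by 0.81 (0.03 to 1.58) and H2-DMb1 by 0.86 (0.03 to 1.69) in the same sense. With 2 CPM added in place of 0.5, the differences of H2-Aa, H2-Eb1 and H2-DMb1 shrank to 0.53, 0.49 and 0.70. That of Cd74 was 0.65. For H2-Ab1, H2-DMa, Ciita, Rfxap and Rfxank the interval of the difference held 0. Ciita had a log2 ratio of -2.20 (-2.57 to -1.91) in GFP-high and -1.79 (-2.50 to -1.27) in GFP-low cells. The model uses these differences as its spread, so they could not be tested.

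**Figure D2:**
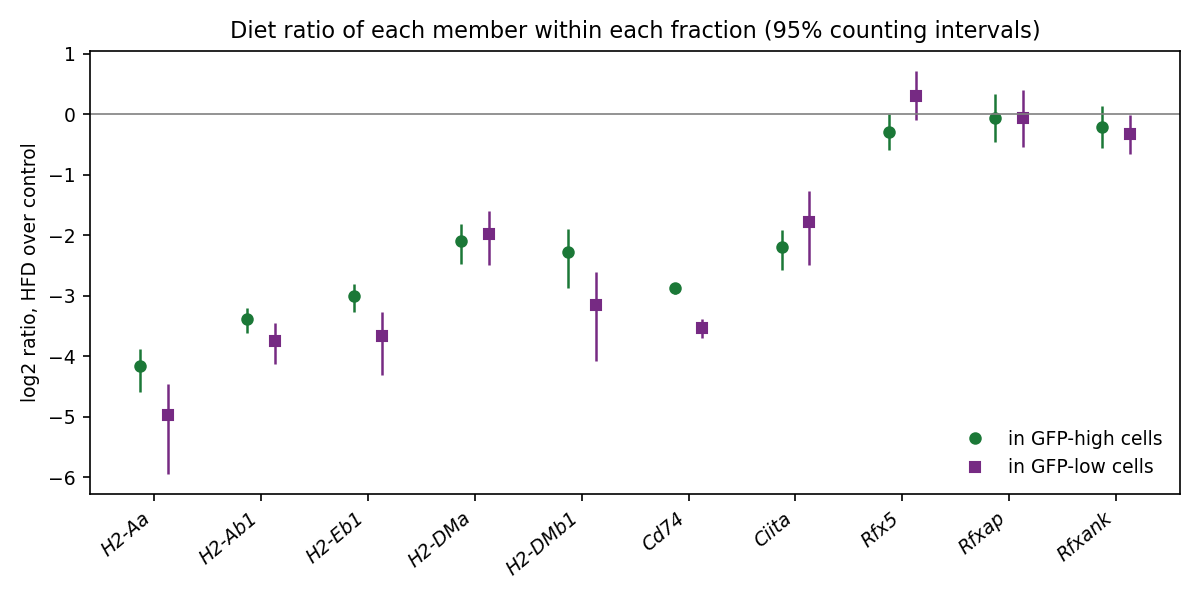
Log2 ratio of HFD over control for each gene in GFP-high cells (circles) and GFP-low cells (squares), with exact 95% intervals for the ratio of counts. The ratios of the 7 genes that fell lie between -1.79 and -4.97, and those of the 3 RFX genes between -0.33 and 0.30.

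The falls were not of one size. Differences between genes were taken from count ratios with no CPM added, so they can depart from the ratios given above. The log2 ratio of H2-Aa minus that of Cd74 was -1.35 (counting interval -1.71 to -0.99) in GFP-high cells and -1.62 (-2.33 to -0.90) in GFP-low cells. The ratio of H2-Aa minus that of H2-Ab1, its partner chain, was -0.82 (-1.22 to -0.42) in GFP-high and -1.37 (-2.14 to -0.60) in GFP-low cells. The log2 ratio of H2-DMa differed from that of Ciita by 0.09 (-0.36 to 0.55) in GFP-high and -0.17 (-0.89 to 0.55) in GFP-low cells, so no difference between this pair was detectable at this depth.

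The unequal falls changed the make-up of the class II messages. Of the summed counts of H2-Aa, H2-Ab1, H2-Eb1 and Cd74, Cd74 took 72.4% (exact 95% binomial interval 70.2 to 74.6) in HFD GFP-high cells, against 63.9% (63.0 to 64.8) in control GFP-high cells. It took 75.1% (71.2 to 78.7) in HFD GFP-low cells, against 68.0% (66.8 to 69.2) in control GFP-low cells. H2-Aa took 4.22% (3.31 to 5.29) in HFD GFP-high cells, against 9.47% (8.94 to 10.02) in control GFP-high cells. In GFP-low cells H2-Aa took 3.18% (1.87 to 5.05) under HFD, against 8.84% (8.14 to 9.57) under control. The intervals of the diets do not overlap for Cd74 or H2-Aa in either fraction. Per kilobase, Cd74 was 38.8-fold above H2-Aa in HFD GFP-high cells, against 15.3-fold in control GFP-high cells. In GFP-low cells it was 53.4-fold above H2-Aa under HFD, against 17.4-fold under control.

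**Figure D3:**
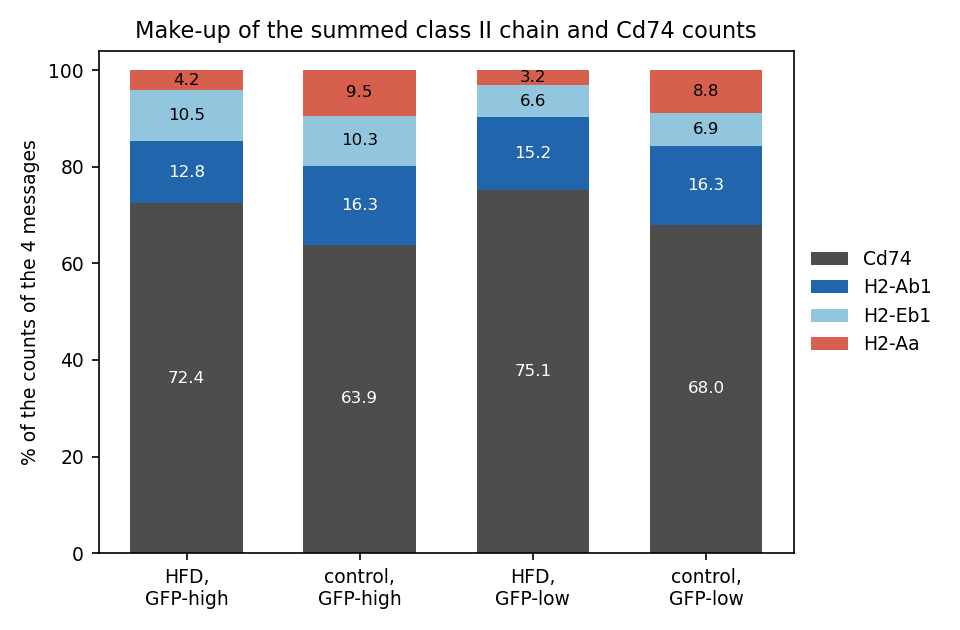
Shares of Cd74, H2-Ab1, H2-Eb1 and H2-Aa in their summed counts, in percent, for each library. Cd74 holds a larger share and H2-Aa a smaller share in each HFD library than in the control library of the same fraction.

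The fractions were then compared over both diets in the same model. Of the 10 genes, 7 were higher in GFP-high cells and Rfxank was lower, where 21.5% of all tested genes were higher and 24.8% lower. Between the fractions (GFP-high over GFP-low) the median log2 value was 0.61 over the 10 genes and 0.01 over all tested genes. Ciita was 2.77-fold higher in GFP-high cells (log2 1.47 ± 0.17 SE, edgeR adjusted p = 4.51e-05). H2-Eb1 was 2.58-fold higher (log2 1.37 ± 0.15 SE, edgeR adjusted p = 3.91e-05). H2-Aa, Cd74 and H2-Ab1 were 1.80-fold, 1.76-fold and 1.66-fold higher (edgeR adjusted p = 0.00148, 0.0008 and 0.000524). For H2-Aa, H2-Eb1, Cd74 and H2-Ab1 the ratio was larger under HFD than under control, although for H2-Ab1 the interval of the difference held 0. For Ciita, H2-DMa and Rfx5 it was smaller under HFD. Without either control library, leaving the HFD pair, the log2 ratio of H2-Aa was 1.503 (counting interval 0.85 to 2.49), and without either HFD library, leaving the control pair, it was 0.70 (0.55 to 0.85). Cd74 stood at 1.17 (1.01 to 1.34) in the HFD pair and 0.51 (0.45 to 0.56) in the control pair. H2-Eb1 stood at 1.84 (1.38 to 2.48) in the HFD pair and 1.17 (1.02 to 1.34) in the control pair. H2-DMa was 1.39-fold and Rfx5 1.41-fold higher (edgeR adjusted p = 0.0185 and 0.0344), and DESeq2 did not call these 2, leaving 5. Rfx5 stood at 0.20 (-0.12 to 0.54) in the HFD pair and 0.80 (0.45 to 1.19) in the control pair.

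No call was made between the fractions for H2-DMb1, at log2 0.09 ± 0.22 SE with an edgeR adjusted p of 0.752, or for Rfxap, at log2 0.08 ± 0.18 SE with an edgeR adjusted p of 0.739. The ratio of H2-DMb1 had opposite signs under the diets, 0.74 (counting interval 0.01 to 1.67) under HFD and -0.12 (-0.43 to 0.18) under control. With library totals in place of TMM both values were positive, 0.93 under HFD and 0.04 under control. Rfxank was 1.5-fold lower in GFP-high cells (log2 -0.59 ± 0.14 SE, edgeR adjusted p = 0.00621) and was not called by DESeq2. Under HFD, 4 genes (H2-Aa, H2-Eb1, Cd74 and Ciita) were at least 2-fold higher in GFP-high than in GFP-low cells, where 6.43% of genes with 5 CPM or more were. Under control the number was 2 (H2-Eb1 and Ciita), where 5.52% of genes were. Scaling by library totals moved the median of all genes by 0.19 and gave 3628 genes higher and 1931 lower, against 2297 and 2656 with TMM, and the number of members called higher stayed 7. Without diet as a term edgeR called 0 of the 10 as higher, with 1 at an unadjusted p under 0.05.

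**Figure D4:**
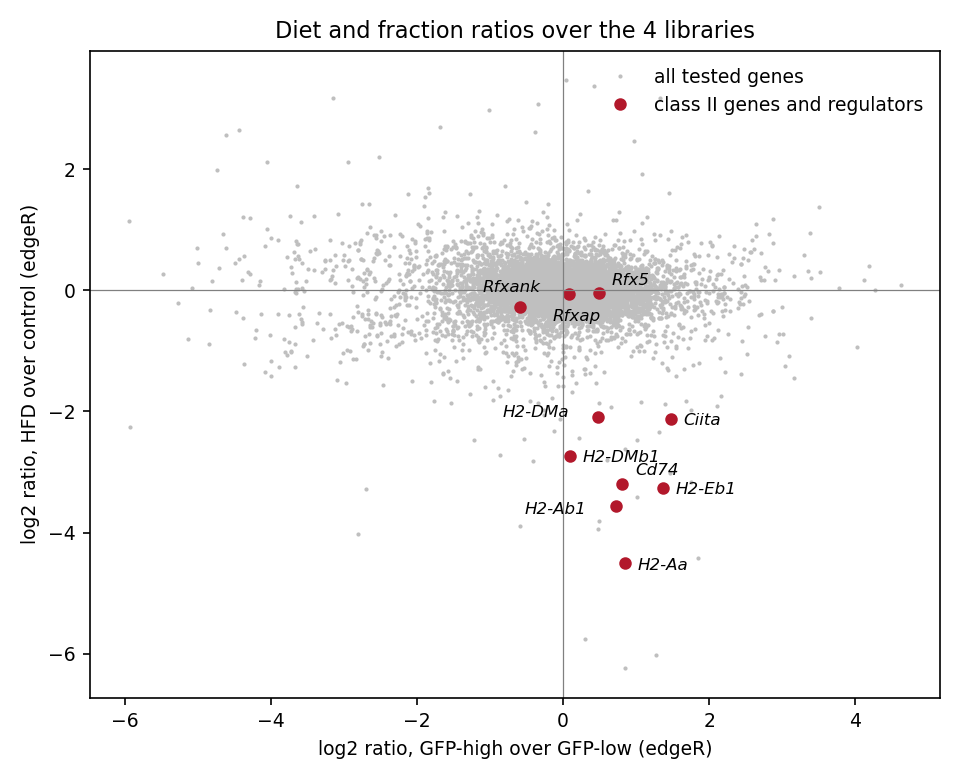
Diet ratio (HFD over control, log2) against fraction ratio (GFP-high over GFP-low, log2) for 10694 tested genes (grey) and the 10 class II genes and regulators (red). The 7 genes that fell under HFD lie to the right of 0 on the fraction axis, between 0.09 (H2-DMb1) and 1.47 (Ciita).

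The other genes of the pathway were read from lists that hold no member. Among all 10694 tested genes, 242 rose and 321 fell under HFD. In the endosomal processing list 1 of 7 tested genes rose and none was called lower. The lowest ratio was that of Lgmn, named after its values were seen (log2 -0.80 ± 0.22 SE, edgeR adjusted p = 0.0647). The gene that rose, named after its values were seen, was Ifi30, the thiol reductase of antigen processing (log2 0.42 ± 0.10 SE, edgeR adjusted p = 0.0295). Ctss, cathepsin S, which trims the invariant chain, had 159 and 193 counts under HFD, against 158 and 177 counts under control (log2 -0.15 ± 0.14 SE, edgeR adjusted p = 0.613). The list's median log2 ratio was 0.06.

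Among 10 promoter partners and coactivators 1 fell and none rose, with a median log2 ratio of -0.14. The gene that fell, named after its values were seen, was Ep300, a histone acetyltransferase (log2 -0.42 ± 0.10 SE, edgeR adjusted p = 0.0323). Nfya, a subunit of NF-Y, had 69.6 and 41.0 CPM under HFD, against 80.8 and 47.2 CPM under control (log2 -0.21 ± 0.12 SE, edgeR adjusted p = 0.349). Creb1, a CREB protein, was at log2 -0.22 ± 0.11 SE, with an edgeR adjusted p of 0.287.

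In the list for the interferon-gamma signal to Ciita, 4 of 10 tested genes fell and none rose, with a median log2 ratio of -0.26. The list holds inhibitors as well as carriers of the signal, so its count and median pool genes of opposite action. Irf1, a transcription factor that acts on Ciita, had 95.7 and 121 CPM under HFD, against 149 and 178 CPM under control (log2 -0.60 ± 0.10 SE, edgeR adjusted p = 0.00407). Socs3, a feedback inhibitor of cytokine signalling, fell 2.52-fold (edgeR adjusted p = 0.00732). The kinase gene Jak2, named after its values were seen, fell 1.38-fold, with an edgeR adjusted p of 0.0445. For the receptor gene Ifngr1 the log2 ratio was -0.14 ± 0.12 SE, with an edgeR adjusted p of 0.557. Ifng, the gene of the cytokine itself, had 0 counts in all 4 libraries.

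Class I genes also fell, all 9 tested, with a median log2 ratio of -0.86. Nlrc5, the class I counterpart of Ciita, had 17 and 5 counts in HFD GFP-high and GFP-low cells, against 139 and 58 counts in control GFP-high and GFP-low cells. It fell 10.6-fold (log2 -3.41 ± 0.31 SE, edgeR adjusted p = 9.83e-05). Psmb8, an immunoproteasome subunit, and Tap1, a peptide transporter, fell by factors of 3.57 and 2.10, with edgeR adjusted p-values of 4.51e-06 and 0.00126. Of 8 co-stimulatory and checkpoint ligands, 4, including Cd80 and Cd86, had 0 counts in all libraries, and 2 passed the filter. Of these, Cd276 had 130 and 53 counts under HFD, against 147 and 79 under control (edgeR adjusted p = 0.108). Icosl had 39 and 18 counts under HFD, against 43 and 26 under control (edgeR adjusted p = 0.388). Cd274 (PD-L1) had 14 and 3 counts under HFD, against 13 and 6 under control.

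**Figure D5:**
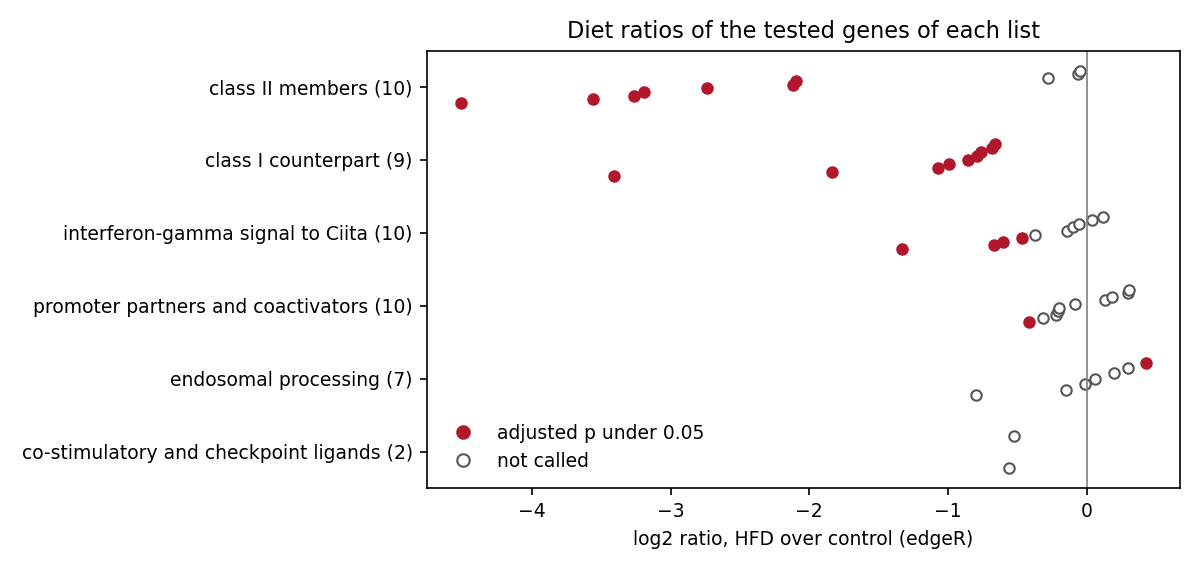
Log2 ratio of HFD over control for the tested genes of each list, with the number tested in brackets. Filled points passed the test at an adjusted p under 0.05, and the class II points that fell lie at -2.09 or lower.

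The genes whose pattern over the 4 libraries was nearest to the mean of H2-Aa, H2-Ab1, H2-Eb1 and Cd74 were Cd177, Ceacam10, Nlrc5, Plet1 and Smarcd3, out of 9293 genes compared. Likeness was the root mean square distance between log2 values (of CPM plus 0.5) centred over the 4 libraries. Members, predicted genes and pseudogenes were left out of the comparison. Cd177, a surface glycoprotein of neutrophils, was nearest at 0.19, with 9.15 and 3.43 CPM under HFD, against 99.7 and 81.6 CPM under control. Ceacam10, a member of the carcinoembryonic antigen family, stood at 0.24, with 13.3 and 5.66 CPM under HFD, against 162 and 133 CPM under control. Nlrc5, Plet1 and Smarcd3 stood at 0.31, 0.37 and 0.50. In HFD GFP-high and GFP-low cells Nlrc5 had 17 and 5 counts, Plet1 2 and 0, and Smarcd3 16 and 1. The added 0.5 CPM therefore weighs on the distances of Nlrc5, Plet1 and Smarcd3. On the same scale Ciita stood at 0.89, H2-DMa at 0.89 and the RFX genes between 1.87 and 1.89. These distances describe 4 libraries and carry no test.

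Markers of other epithelial cell types were read in the same fit, in which 242 of the 10694 tested genes rose under HFD and 321 fell. All 6 Paneth cell markers fell under HFD. Their sum was 445 and 1101 CPM in HFD GFP-high and GFP-low cells, against 758 and 2234 CPM in control GFP-high and GFP-low cells. Of 8 enterocyte markers 7 rose, with sums of 795 and 6076 CPM under HFD, against 402 and 1932 CPM under control. Goblet and enteroendocrine markers had 1 gene of 6 and 1 of 4 that fell, and none of 3 tested tuft genes was called by edgeR. Goblet sums were 2940 and 17016 CPM under HFD, against 3283 and 38602 CPM under control. Enteroendocrine sums were 66.0 and 417 CPM under HFD, against 49.6 and 976 CPM under control. Stem cell markers had 2 of 10 that fell, and sums of 9416 and 1485 CPM under HFD, against 10453 and 2005 CPM under control. No marker of the Paneth, enterocyte, goblet, enteroendocrine or stem cell lists was at 0 in all libraries, and their part in the class II result was not tested. With 1 pool of mice per diet and fraction, diet and other differences between the pools cannot be told apart.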

How the data were processed

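Each deposited file lists raw counts for Ensembl gene IDs. Per the submitters' processing notes, the authors used cutadapt, TopHat 1.4.1 and HTSeq on build GRCm38 (mm10). No source used here gives the annotation release or the strand setting. Per the labels' protocols, the libraries were strand-specific (dUTP). Of 38124 IDs, 36345 matched a symbol. No row lacked a gene ID. Positions and merged exon lengths came from GENCODE M21 (GRCm38).

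Library sizes (4677389 to 6207080) were scaled by TMM in edgeR version 4.0.16 under R 4.3.3. A gene entered the fit with 20 or more counts in 2 or more libraries, which 10694 did, and was fitted with diet and fraction as terms, which leaves 1 residual degree of freedom. edgeR's quasi-likelihood F-test was two-sided, with Benjamini-Hochberg adjustment over all genes and a threshold of 0.05. SE is the log2 ratio divided by the root of F. The procedure was tested on simulated data with the same spread for all genes and no diet-by-fraction effect. That test therefore cannot check p-values whose spread comes from the diet-by-fraction difference. Within-fraction ratios added 0.5 CPM and have exact 95% Poisson intervals. Differences between ratios have Poisson delta-method intervals. Differences between genes used counts with nothing added, and those between fractions used the ratios with 0.5 CPM. Without molecular identifiers, intervals and limits cover only counting error. The p-values rest on the spread among 4 libraries, part of which may be technical.

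The genes named were all 10 members, called context genes with at least 2-fold change (at most 4 per list), genes fixed by name and the 5 nearest by likeness at 10 CPM or more. Members and lists were chosen with earlier results of these data known. Alternatives were DESeq2 version 1.42.0, other scalings, filters and pseudocounts, no second term, and single libraries left out. Some promoter sequences are not used here, and some genes of the lists are not reported here.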

Additional observations from a re-analysis of the deposited data

Results flagged for a closer look

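Rfx5, the DNA-binding subunit of RFX, had diet ratios of opposite sign in the fractions, which none of the other 9 genes had. Its log2 ratio of HFD over control was -0.29 (counting interval -0.59 to -0.01) in GFP-high cells and 0.30 (-0.09 to 0.71) in GFP-low cells. The difference was -0.59 (-1.08 to -0.11) and was not tested. H2-DMb1, a chain of H2-DM, had fraction ratios of opposite sign under the diets. Set GFP-high over GFP-low, its log2 value was 0.74 (counting interval 0.01 to 1.67) under HFD and -0.12 (-0.43 to 0.18) under control, a difference of 0.86 (0.03 to 1.69) that was not tested. With library totals in place of TMM the values were 0.93 under HFD and 0.04 under control. The opposite signs of H2-DMb1 therefore depended on the scaling.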

How the results depend on the processing

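Under every alternative but one, 7 of the 10 genes were called lower under HFD: DESeq2 size factors, library totals, no low-count filter, a filter of 100 counts, removal of mitochondrially encoded genes, and DESeq2's Wald test. The exception was the fit without the other factor as a term, where edgeR called 0 of the 10 and 0 of all genes (154 at an unadjusted p under 0.05), since the fraction difference then counts as spread. Over all genes the diet calls were 563, against 1133 with no filter on low counts and 189 by DESeq2. For the fractions, the calls over all genes were 4953, against 2794 without the other factor as a term and 2390 by DESeq2, and the members called higher were 0 without that term. That fit also turned the fraction ratio of H2-DMb1 to -0.0100 (0.09 with the term). The cause of these changes was otherwise not tested. Leaving out 1 library leaves no residual degree of freedom, so it gives the ratio of the intact pair without a test, as in the within-fraction values. Pseudocounts of 0.1 and 2 CPM left the number of members past 2-fold at 7 in both fractions. Depth limits the genes with few counts, such as H2-Aa with 17 and H2-DMb1 with 19 in HFD GFP-low cells.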
